A study of Homo sapiens with 12 samples.

Results

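The genes described here are those whose level in all 9 libraries of cells given a mutant Dicer plasmid lay above, or in all 9 lay below, the 3 libraries of cells given the wild-type plasmid. Levels are CPM, counts relative to the size of the library after scaling by the trimmed mean of M-values (TMM), so that they can be compared between libraries for 1 gene but not between genes. Of 15094 genes that passed a filter on low counts, 1274 (8.44%) lay above and 1452 (9.62%) lay below, 2726 (18.1%) in all. Across every gene ID, the filter aside, 1347 lay above and 1657 below, and 73 and 205 of these did not pass the filter. The position against wild type chose these genes, so their levels and fold changes are given as a description, without a test against wild type.

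The cells were of the MDA-MB-231 line, which comes from a triple-negative breast cancer. They received, by lipofection, a plasmid with Dicer mutation 1, mutation 2 or mutation 3, or the wild-type plasmid, and each of these 4 groups held 3 libraries. The labels number the mutations and do not say which residue or domain of Dicer they change, nor whether the libraries came from separate cultures. All groups received a Dicer plasmid, the labels name no change to the cells' own DICER1 gene, and no untransfected or empty-plasmid cells were analysed here.

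Dicer is the ribonuclease that cuts hairpin precursors into mature microRNAs. An Argonaute protein holds the mature strand and pairs it with target mRNAs, mainly through the seed, bases 2 to 8, and proteins of the TNRC6 family then recruit the enzymes that repress and degrade the target. In cancer cells, let-7 microRNAs are known for holding down growth genes and miR-200 microRNAs for holding down genes of the mesenchymal state. Poly(A)-selected libraries do not measure mature microRNAs, so only host transcripts, machinery and known targets can be read here.

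Library totals ran from 13507341 to 17078273 counts. Wild-type replicate 1 stood apart from the other two wild-type libraries: of 10613 genes that averaged 5 CPM or more, 1513 differed more than 2-fold between wild-type replicates 1 and 2 and 1532 between replicates 1 and 3, but 1 between replicates 2 and 3 and at most 5 between any pair of libraries of 1 mutation. Mitochondrially encoded mRNAs took 1.27% to 1.36% of counts with mutation 1, from 4.48% to 5.57% with mutation 2 and from 4.81% to 5.05% with mutation 3, against 1.34%, 5.04% and 5.09% in wild-type replicates 1, 2 and 3. The requirement to clear all 3 wild-type libraries was set by replicate 1 for most genes: it was the wild-type library nearest to the mutants for 712 genes above (55.9%) and 986 genes below (67.9%). Without it, 3361 genes lay above (21.3% of 15806 tested) and 3747 below (23.7%), and these held 1274 of the 1274 and 1444 of the 1452. Its level was within 1.5-fold of the mean of the other two for 957 of the genes above and 1160 of the genes below. Replicates 2 and 3, in turn, stood apart from all other libraries on several chromosomes, as described further on. The labels do not say whether the 3 wild-type libraries came from 1 stock of cells, so an effect of the mutations and a difference between stocks cannot be told apart in these libraries. Why the wild-type libraries differ was not tested, and counts without replicate 1 are given beside the gene lists that follow.

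The label of the cells was read against markers. Genes known to be high in this line summed to 9268 to 11996 CPM in the mutant libraries, against 9145 to 10617 CPM in wild type, with VIM and CD44 high throughout. Genes known to be low in it, among them ESR1 and PGR, summed to 52.2 to 93.3 CPM in the mutant libraries, against 86.8 to 96.7 CPM in wild type. These low markers went in part against the label. SPDEF made up 31.0, 65.8 and 63.8 CPM of the sum in wild-type replicates 1, 2 and 3 and at most 0.479 CPM in any mutant library. GATA3, a luminal factor, was at 20.9 to 29.97 CPM in the mutant libraries, against 25.1, 7.71 and 9.25 CPM, and EPCAM, an epithelial adhesion protein, at 15.2 to 33.3 CPM, against 17.7, 5.64 and 4.59 CPM. CDH1, also on the low list, was at 9.58 to 12.2 CPM with mutation 1 and 13.8 CPM in wild-type replicate 1. All other libraries held 0.523 to 1.23 CPM of it. Leukocyte markers summed to 9.48 to 32.7 CPM, against 9.05 to 26.1 CPM, and 4 of 14 (CD3E among them) had no count anywhere.

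DICER1 itself (chromosome 14, 95086228 to 95158010 on hg38, minus strand) belonged to neither set. Its level was 38.8 to 45.7 CPM (median 43.5) in the mutant libraries, against 27.4, 45.2 and 47.4 CPM in wild-type replicates 1, 2 and 3. The groups overlapped, and replicate 1 of wild type was the lowest library. The mean of the 3 mutations differed from wild type by a log2 fold change of 0.09 ± 0.13 (SE; adjusted p = 0.548, edgeR's quasi-likelihood test, 3 libraries per group), and −0.11 (adjusted p = 0.0375) without wild-type replicate 1. The 3 mutations averaged 43.7 ± 1.52, 45.3 ± 0.731 and 39.4 ± 0.638 CPM (SD, n = 3 each; adjusted p among them 0.488). Counts per gene do not separate reads of the plasmid from those of the cells' own gene, and do not show which form of Dicer was present.

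The genes that lay farthest below wild type were led by those of a mucus-secreting epithelial program. SPDEF, an ETS factor of goblet and secretory luminal cells, was at 0 to 0.479 CPM (median 0.296) in the mutant libraries, against 31.0, 65.8 and 63.8 CPM in wild-type replicates 1, 2 and 3. AGR2, the disulfide isomerase that folds mucins in the endoplasmic reticulum, was at 0 to 0.0704 CPM, against 11, 21.7 and 21.7 CPM. That is 2 counts in all 9 mutant libraries together and 891 counts in wild type, a ratio of wild type over mutant of 1226 with an exact 95% interval of 338 to 10140, which covers counting error only. The interval allows neither for spread between libraries nor for the choice of AGR2 by its gap, and is no test against wild type. Both genes were thus close to absent in each of the 9 mutant libraries and well measured in each of the 3 wild-type libraries.

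The promoters of SPDEF and AGR2 are shown because these genes have the widest gaps below wild type. FOXA2, a forkhead factor among the genes below, is known to act on secretory genes, and a forkhead-type sequence is therefore marked. Each sequence runs 5′ to 3′ on the minus strand from 250 bases before the start base to 50 bases from it (RefSeq, GRCh38.p14), SPDEF at chr6:34556280-34556579 and AGR2 at chr7:16804950-16805249, with GTAAAT in capitals.
SPDEF: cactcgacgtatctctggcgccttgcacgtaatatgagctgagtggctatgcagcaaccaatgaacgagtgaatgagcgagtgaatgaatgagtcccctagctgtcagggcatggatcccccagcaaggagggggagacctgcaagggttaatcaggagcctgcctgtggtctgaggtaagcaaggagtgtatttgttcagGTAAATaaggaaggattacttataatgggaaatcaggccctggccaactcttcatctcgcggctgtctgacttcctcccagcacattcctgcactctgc
AGR2: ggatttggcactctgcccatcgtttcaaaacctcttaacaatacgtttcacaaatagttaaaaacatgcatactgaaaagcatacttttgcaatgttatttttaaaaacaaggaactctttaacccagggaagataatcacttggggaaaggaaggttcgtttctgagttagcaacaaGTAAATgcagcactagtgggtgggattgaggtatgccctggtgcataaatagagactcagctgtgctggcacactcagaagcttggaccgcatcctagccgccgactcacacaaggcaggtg
Both strands were searched for TGTTTAC, a forkhead consensus, which was in neither window, and for GTAAAT, which was chosen after the sequences were seen, shares its letters with forms of that consensus and was in each window 1 time, 49 bases before the start of SPDEF and 72 before that of AGR2. TGTTTAC is in 3.42% and GTAAAT in 8.21% of 35116 promoter windows of this length, and a match is a description of the letters only.

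Several other secretory genes followed the same layout. MUC5AC, a gel-forming mucin, was at 0 to 0.338 CPM (median 0.195) in the mutant libraries, against 8.47, 1014 and 1002 CPM in wild type, where replicate 1 was far below the other two but 25-fold above the highest mutant library. MUC5B, the second gel-forming mucin of the same cluster on chromosome 11, was at 0 to 0.626 CPM (median 0.195), against 15.8, 25 and 25 CPM. FOXA2 was at 0 to 1.13 CPM (median 0.259), against 16.5, 80.4 and 79.8 CPM. None of these 3 genes was called different among the mutations (adjusted p 0.864, 0.0745 and 0.0976, edgeR's quasi-likelihood test).

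The trefoil peptides, which are secreted with mucins, were low throughout and lowest in mutants. TFF3 was at 0 to 0.188 CPM in the mutant libraries, against 2.03, 3.58 and 4.08 CPM in wild type. TFF2 was at 1.13 to 3.27 CPM, against 4.46, 5.70 and 4.27 CPM. TFF1 was at 0 to 0.958 CPM, against 2.95, 1.34 and 1.23 CPM, and differed among mutations (adjusted p = 0.000691), with means of 0.775 ± 0.199, 0.0423 ± 0.0373 and 0 CPM in mutations 1, 2 and 3.

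Of 13 tested genes of the mucin and secretory list, 8 (61.5%) lay below all wild-type libraries and 0 above, with a median log2 fold change of −4.74, beside −0.03 over all genes tested. The 8 are the 8 genes named above. In all, 8 were called lower and 3 higher, beside 33.6% and 27.2% of all genes tested. Without wild-type replicate 1, 8 lay below and 3 above. A further 17 listed genes did not pass the filter, so the share is of the measured members alone. SPDEF, AGR2, MUC5AC, MUC5B and FOXA2 passed it only through the wild-type libraries, where they are high. AGR2 had 2 counts in the mutant libraries and 891 in wild type, and MUC5AC 23 and 33779. The share below and the median of this list are thus in part fixed by the filter. Against this direction LCN2, a secreted siderophore-binding protein, was higher in mutants (81.1 to 284 CPM, median 116, against 98.3, 25.6 and 28.7 CPM; log2 fold change 1.45 ± 0.35, adjusted p = 0.00457), although its groups overlapped through wild-type replicate 1. The mucin gene MUC1 was at 2.16 to 41.5 CPM in the mutant libraries, against 7.68, 1.23 and 1.36 CPM in wild-type replicates 1, 2 and 3. Summed over all 30 listed genes, the level was 180.3 to 414 CPM in the mutant libraries, against 324, 1347 and 1337 CPM in wild-type replicates 1, 2 and 3. The sum thus did not separate replicate 1 from the mutants. The 8 genes separate it only because the rule chose them to. In bulk RNA, fewer cells of a type and less RNA per cell cannot be told apart.

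Further genes far below wild type were transcription factors, adhesion proteins and keratins. SOX4, an SRY-related factor, was at 0 to 3.17 CPM (median 0.0704) in the mutant libraries, against 28.2, 43.1 and 43.8 CPM in wild type. It differed among mutations (adjusted p = 7.00e-05), with 2.49 ± 0.586 CPM in mutation 1, 0.252 ± 0.319 in mutation 2 and 0.0209 ± 0.0361 in mutation 3. ATOH8, a basic helix-loop-helix factor, was at 0 to 1.83 CPM (median 0.878), against 12.5, 39.3 and 36.7 CPM. For these factors the mutants were low as a class and their order differed from gene to gene: mutation 1 was the highest for SOX4 and mutation 2 for ATOH8 (1.77 ± 0.0767 CPM, beside 0.802 ± 0.367 and 0.107 ± 0.0993 CPM in mutations 1 and 3).

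INHBB encodes an activin subunit. Its level was 0 to 0.537 CPM (median 0.113) in the mutant libraries, against 8.73, 10.6 and 10.9 CPM, and here the 3 wild-type libraries were alike. TNS4, a tensin of focal adhesions, was at 0.0704 to 1.13 CPM (median 0.201), against 13.1, 51.0 and 53.4 CPM. MISP, an actin-binding protein of the mitotic spindle, was at 0.282 to 2.75 CPM (median 0.519), against 24.7, 47.9 and 45 CPM. In TNS4 and MISP, as in most of this group, wild-type replicate 1 sat between the mutants and the other wild-type libraries.

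KRT81, a hair keratin known to be made by breast cancer lines, varied widely among the mutants. It was at 32.2 ± 3.95, 0.301 ± 0.0664 and 8.73 ± 0.774 CPM in mutations 1, 2 and 3, against 167, 1537 and 1508 CPM in wild type (adjusted p among mutations 0.000253). KRT86 is nearly identical, so reads of this pair may be split or lost and the level is uncertain. SLAMF7, a surface receptor best known from lymphocytes, was at 1.34 ± 0.418, 0 and 0.0209 ± 0.0361 CPM in the 3 mutations, against 7.88, 18.9 and 22.5 CPM. ZG16B, a secreted lectin-like protein, and TMEM156 were highest in mutation 2 among the mutants (1.60 ± 0.276 and 2.14 ± 0.473 CPM), and both stayed under the lowest wild-type library (8.14 and 10.0 CPM). SUSD5 completes the 15 widest gaps, at 0.392 to 1.18 CPM, against 6.17, 25.9 and 23.6 CPM.

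**Figure D1:**
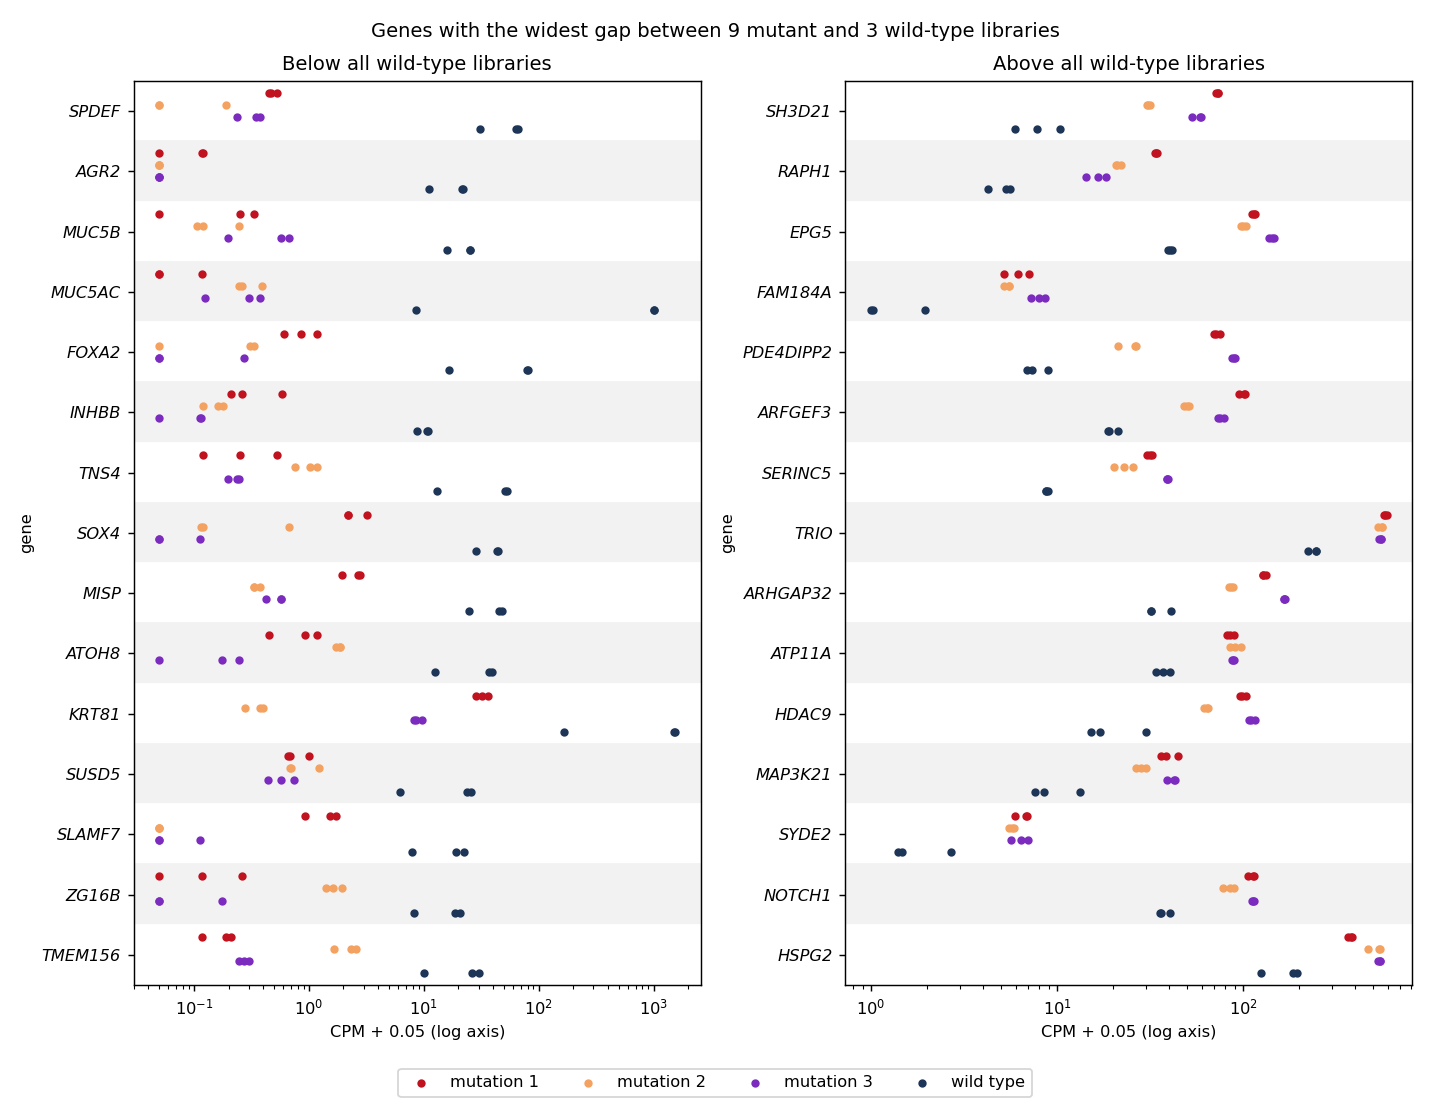
Each gene has a row in which every point is 1 library, at its CPM plus 0.05 on a log axis, with mutations 1, 2 and 3 drawn above wild type; the left panel holds the 15 genes with the widest gap below wild type and the right panel the 15 with the widest gap above. On the left wild-type replicate 1 is the wild-type point nearest to the mutants (for MUC5AC at 8.47 CPM, beside 1014 and 1002), and on the right the 3 wild-type points lie closer together, as for TRIO at 223, 246 and 245 CPM.

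The genes with the widest gap above wild type lay nearer to it than those below. SH3D21 was at 30.3 to 73.2 CPM (median 58.4) in the mutant libraries, against 10.3, 5.87 and 7.76 CPM in wild-type replicates 1, 2 and 3, a gap of 2.94-fold between the nearest libraries. RAPH1, an actin regulator of lamellipodia, was at 14.2 to 34.2 CPM (median 20.9), against 5.25, 4.19 and 5.5 CPM. TRIO, a guanine nucleotide exchange factor, was at 527 to 591 CPM (median 556), against 223, 246 and 245 CPM. It was not called different among the 3 mutations (adjusted p 0.239, edgeR's quasi-likelihood test). Its log2 fold change of 1.23 ± 0.05 is thus one of the most even of the set across all 3 mutations (1.29, 1.20 and 1.20).

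Several of these genes serve vesicles, membranes and signalling. EPG5, which tethers autophagosomes to lysosomes, was at 97.6 to 146 CPM (median 114), against 39.2, 41.6 and 40.4 CPM. ARFGEF3, an ARF exchange factor family member, was at 47.7 to 103 CPM (median 75.4), against 18.7, 18.9 and 21.3 CPM, and SERINC5, a membrane scramblase, at 20.2 to 39.5 CPM (median 31.4), against 8.86, 8.66 and 8.67 CPM. In these 3 genes the wild-type libraries, replicate 1 included, lay within a narrow band. ATP11A, a phospholipid flippase, was at 81.6 to 97.2 CPM (median 88.0), against 40.2, 34.0 and 36.8 CPM. It was not called different among mutations (adjusted p = 0.483, edgeR's quasi-likelihood test).

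NOTCH1, a receptor of cell-fate decisions, was at 77.7 to 115 CPM (median 111), against 40.4, 35.8 and 36.2 CPM. HSPG2, the basement-membrane proteoglycan perlecan, was at 367 to 546 CPM (median 533), against 125, 194 and 184 CPM, with mutation 1 the nearest to wild type (377 ± 9.73 CPM, beside 517 ± 40 and 541 ± 6.71 CPM in mutations 2 and 3). HDAC9, a class IIa histone deacetylase, was at 61.2 to 116 CPM (median 98.8), against 30.1, 17 and 15.2 CPM. ARHGAP32, a GTPase-activating protein, was at 83.8 to 167 CPM (median 128), against 41.1, 31.8 and 32.0 CPM.

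The rest of the 15 were MAP3K21, a kinase upstream of JNK (26.5 to 44.6 CPM, against 13.3, 7.54 and 8.48 CPM), SYDE2, another GTPase-activating protein (5.49 to 6.89 CPM, against 2.63, 1.34 and 1.42 CPM), FAM184A (5.10 to 8.56 CPM, against 1.9, 0.95 and 0.970 CPM) and the pseudogene PDE4DIPP2. PDE4DIPP2 was at 21.2 to 90.4 CPM, against 8.86, 7.26 and 6.86 CPM, and as a near copy of PDE4DIP its counts are uncertain. Across the 30 widest gaps, 10 genes were not called different among the 3 mutations: FAM184A, TRIO, ATP11A, SYDE2, AGR2, MUC5B, MUC5AC, FOXA2, TNS4 and SUSD5. The spread behind that call was fitted over all 4 groups. A gene with wild-type libraries far apart, such as MUC5AC, or with few mutant counts, such as AGR2, can therefore miss it, and a missed call does not show that the mutations were equal.

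Over all 2726 genes the distances were smaller. Genes above had a median log2 fold change of 0.87 (quartiles 0.58 and 1.32) and genes below one of −0.85 (quartiles −1.38 and −0.58). A change of at least 1 on the log2 scale was reached by 526 genes above (41.3%) and 598 below (41.2%), and one of at least 3 by 37 above and 97 below. The nearest mutant and wild-type libraries were at least 2-fold apart for 44 genes above and 68 below. By edgeR's quasi-likelihood test 27.2% of all genes tested were called higher and 33.6% lower in the mean of the mutations, and 1268 of the genes above and 1449 of the genes below were among them, a count that the choice of genes fixes.

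At the edge of the rule the groups touched. DNAJC21 (lowest mutant library 69.7 CPM, highest wild-type library 69.7 CPM) and CCDC9 (37.9 and 37.9 CPM) were just inside the set above, and ANOS1 (9.25 and 9.25 CPM) just outside it. DAZAP2 (highest mutant library 138 CPM, lowest wild-type library 138 CPM) and TAF6L (21.3 and 21.3 CPM) were just inside the set below, and COX6B1 (120.0 and 120.0 CPM) and RAB22A (89.1 and 89.1 CPM) just outside it.

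For most of these genes the 3 mutations differed in level, as they did for most genes tested. Among the 2726, 1893 (69.4%) differed among the 3 mutations (adjusted p under 0.05 by edgeR's quasi-likelihood test), 867 of those above and 1026 of those below, beside 72.5% of all genes tested. The contrast holds no wild-type library, but its spread was fitted over all 4 groups, wild-type replicate 1 included. With that replicate left out, 6189 of the 3361 genes above and 3747 below differed among mutations. The share of all genes in that fit is not given here, so this count cannot be read as a trait of these genes. The median log2 fold change of the genes above was 1.02, 0.63 and 0.94 in mutations 1, 2 and 3, and that of the genes below −1.08, −0.52 and −0.94. Mutation 2 was the mutation nearest to wild type for 837 genes above and 1015 below, and mutation 1 the farthest for 702 above and 778 below.

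NEAT1, the scaffold RNA of paraspeckles, shows how wide this range is. It averaged 1482 ± 39.6, 198 ± 2.33 and 726 ± 9.47 CPM in mutations 1, 2 and 3, against 172, 188 and 188 CPM in wild type (adjusted p among mutations 4.39e-10). Mutation 2 thus cleared the highest wild-type library by 1.04-fold only. FEN1, the flap endonuclease of DNA replication, did the same from below, with 19.7 ± 2.08, 178 ± 2.39 and 47.8 ± 0.410 CPM, against 187, 218 and 218 CPM.

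The microRNA machinery held more genes above than below. Of 28 tested genes, 8 (28.6%) lay above, beside 8.44% of all genes, and 2 (7.14%) below, with a median log2 fold change of 0.13. In all, 12 were called higher and 8 lower, beside 27.2% and 33.6% of all genes tested. For every list here, the shares of all genes without wild-type replicate 1 were 21.3% above and 23.7% below. With replicate 1 of wild type left out, 10 lay above and 6 below, and the median was −0.02. TARBP2 and RAN, the pair below, are both on chromosome 12, and of the 25 genes tested elsewhere than chromosomes 12 to 14, 0 lay below.

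Among the Argonautes, AGO2, the one that can slice its target, was at 27.1 to 55.0 CPM (median 29.1) in the mutant libraries, against 19, 14.1 and 15.1 CPM in wild type. It was highest in mutation 1 (52.8 ± 1.91 CPM, beside 27.8 ± 0.895 and 29.4 ± 1.60 CPM). AGO4 was highest in mutation 3 (25.4 ± 1.65 CPM, beside 14.4 ± 0.872 and 19.5 ± 1.21 CPM in mutations 1 and 2), against 12.9, 9.05 and 9.83 CPM in wild type. AGO3 cleared wild type narrowly, at 19.6 to 29.4 CPM, against 11.6, 18.6 and 15.5 CPM.

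TNRC6C, a partner of Argonaute that recruits the deadenylases, was at 22.5 to 35.8 CPM (median 27.2), against 14.8, 14 and 11.9 CPM. TUT4, which adds uridines to let-7 precursors, was at 59.97 to 76.7 CPM (median 71.6), against 49, 42.1 and 39.5 CPM. TENT2, which adds adenosines to RNA ends, was at 30.3 to 58.6 CPM, against 28.0, 25.8 and 28.1 CPM. Each of these genes, which act after or around the Dicer step, was highest in mutation 1 or mutation 3. Most genes above shared this: of all 1274, mutation 1 had the highest mean for 702 and mutation 3 for 393.

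MOV10, an RNA helicase found with Argonaute, was at 72.7 to 134 CPM, against 63.2, 68.4 and 68.0 CPM. PRKRA and TARBP2 encode the pair of double-stranded RNA-binding partners of Dicer, and they lay on opposite sides of wild type. PRKRA (PACT) was at 29.4 to 39.1 CPM (median 33.4), against 29.2, 27.3 and 25.6 CPM, a gap of 1.01-fold. TARBP2 (TRBP) was at 8.46 to 23.7 CPM (median 11.3), against 27.4, 41.2 and 44.1 CPM, with a log2 fold change of −2.06, −0.73 and −1.62 in mutations 1, 2 and 3. RAN, the GTPase that carries precursors out of the nucleus with exportin 5, was at 246 to 402 CPM (median 276), against 447, 604 and 596 CPM.

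DROSHA, DGCR8 and XPO5, which act before Dicer, differed by mutation and lay in neither set. DROSHA, the nuclear ribonuclease, averaged 60.2 ± 1.66, 104 ± 0.859 and 64.9 ± 2.02 CPM in mutations 1, 2 and 3, against 77.8, 75.2 and 73.2 CPM in wild type (log2 fold change of the mean −0.03 ± 0.04, adjusted p = 0.581; among mutations 2.72e-07). Its partner DGCR8 averaged 4.19 ± 0.320, 55.2 ± 2.87 and 19.97 ± 0.653 CPM, against 35.7, 61.2 and 61.0 CPM (log2 fold change −1.66 ± 0.13, adjusted p = 1.89e-06). It lay below wild type once replicate 1, at 35.7 CPM, was left out. XPO5, exportin 5, averaged 82.6 ± 4.98, 128 ± 3.56 and 108 ± 6.25 CPM, against 113, 109 and 106 CPM (log2 fold change −0.06 ± 0.05, adjusted p = 0.292). DHX9, a helicase of double-stranded RNA, was low in mutations 1 and 3 (91.3 ± 1.11 and 95.6 ± 1.55 CPM) and not in mutation 2 (300.4 ± 4.64 CPM), against 263, 272 and 276 CPM.

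Of 31 tested host transcripts of microRNAs, 2 (6.45%) lay above and 1 (3.23%) below, shares under the background of 8.44% and 9.62%. Called higher were 12 and lower 9, beside 27.2% and 33.6% of all genes. With wild-type replicate 1 left out, 9 lay above and 6 below. The mature microRNAs of 2 of the 3 hosts and of the target families used below are shown for their seeds, which are in capitals (RefSeq, GRCh38.p14).
hsa-miR-221-3p: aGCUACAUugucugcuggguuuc
hsa-miR-222-3p: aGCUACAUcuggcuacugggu
hsa-miR-26b-5p: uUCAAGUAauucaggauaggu
hsa-let-7a-5p: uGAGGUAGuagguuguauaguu
hsa-miR-200b-3p: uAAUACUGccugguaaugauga
hsa-miR-200c-3p: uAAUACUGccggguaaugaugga
MIR222HG hosts miR-221 and miR-222, which share a seed (chrX:45746180-45746202 and chrX:45747036-45747056, minus strand), and was at 23 to 32.5 CPM (median 28.9), against 6.89, 16.3 and 15.1 CPM. It was not called different among mutations (adjusted p = 0.344, edgeR's quasi-likelihood test). CTDSP1, the phosphatase gene that hosts miR-26b (chr2:218402657-218402677, plus strand), was at 57.3 to 80.4 CPM (median 64.2), against 102, 115 and 114 CPM, with every wild-type library well clear of every mutant. MIR3936HG was at 1.48 to 3.14 CPM, against 0.788, 0.447 and 0.453 CPM.

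Known targets of let-7 and miR-200 held more genes above wild type than the background while their medians were at or under it. Of 29 tested let-7 targets, 5 (17.2%) lay above and 2 (6.90%) below, beside 8.44% and 9.62% of all genes, with a median of −0.03. Called higher were 8 and lower 10, close to the shares of all genes (27.2% and 33.6%). MYC, the growth regulator, was at 396 ± 13.7, 204 ± 2.67 and 238 ± 5.12 CPM in mutations 1, 2 and 3, against 128, 129 and 124 CPM in wild type. The receptors INSR and IGF1R were at 57.9 to 90.2 CPM, against 42.8, 29.7 and 32.9 CPM, and at 55.6 to 90.5 CPM, against 35.0, 41.6 and 39.9 CPM. CDK6, a cyclin D partner, was at 63.4 to 77.8 CPM, against 52.2, 54.9 and 56.5 CPM, and E2F5 was the fifth gene above. Without wild-type replicate 1, 9 of the let-7 targets lay above and 6 below, and the median was −0.10.

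Of 29 tested miR-200 targets, 6 (20.7%) lay above and 1 (3.45%) below, with a median of −0.23. Called higher were 8 and lower 13, beside 27.2% and 33.6% of all genes. KLF11, a zinc-finger factor, was at 30.6 to 52.7 CPM (median 38.6), against 21.3, 9.66 and 10.5 CPM. WASF3, which drives actin branching, was at 17 to 28.1 CPM, against 13, 11.3 and 9.51 CPM, and PLCG1, a phospholipase, at 173 to 296 CPM, against 139, 114 and 115 CPM. TLN1, FLNA and QKI were the other three above. CDH11, a mesenchymal cadherin, was at 193 ± 2.89, 117 ± 5.41 and 68.3 ± 2.40 CPM in mutations 1, 2 and 3, against 252, 235 and 225 CPM. With wild-type replicate 1 left out, 8 lay above and 11 below. These target genes were thus found on both sides of wild type, and the libraries do not show the level of any microRNA.

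**Figure D2:**
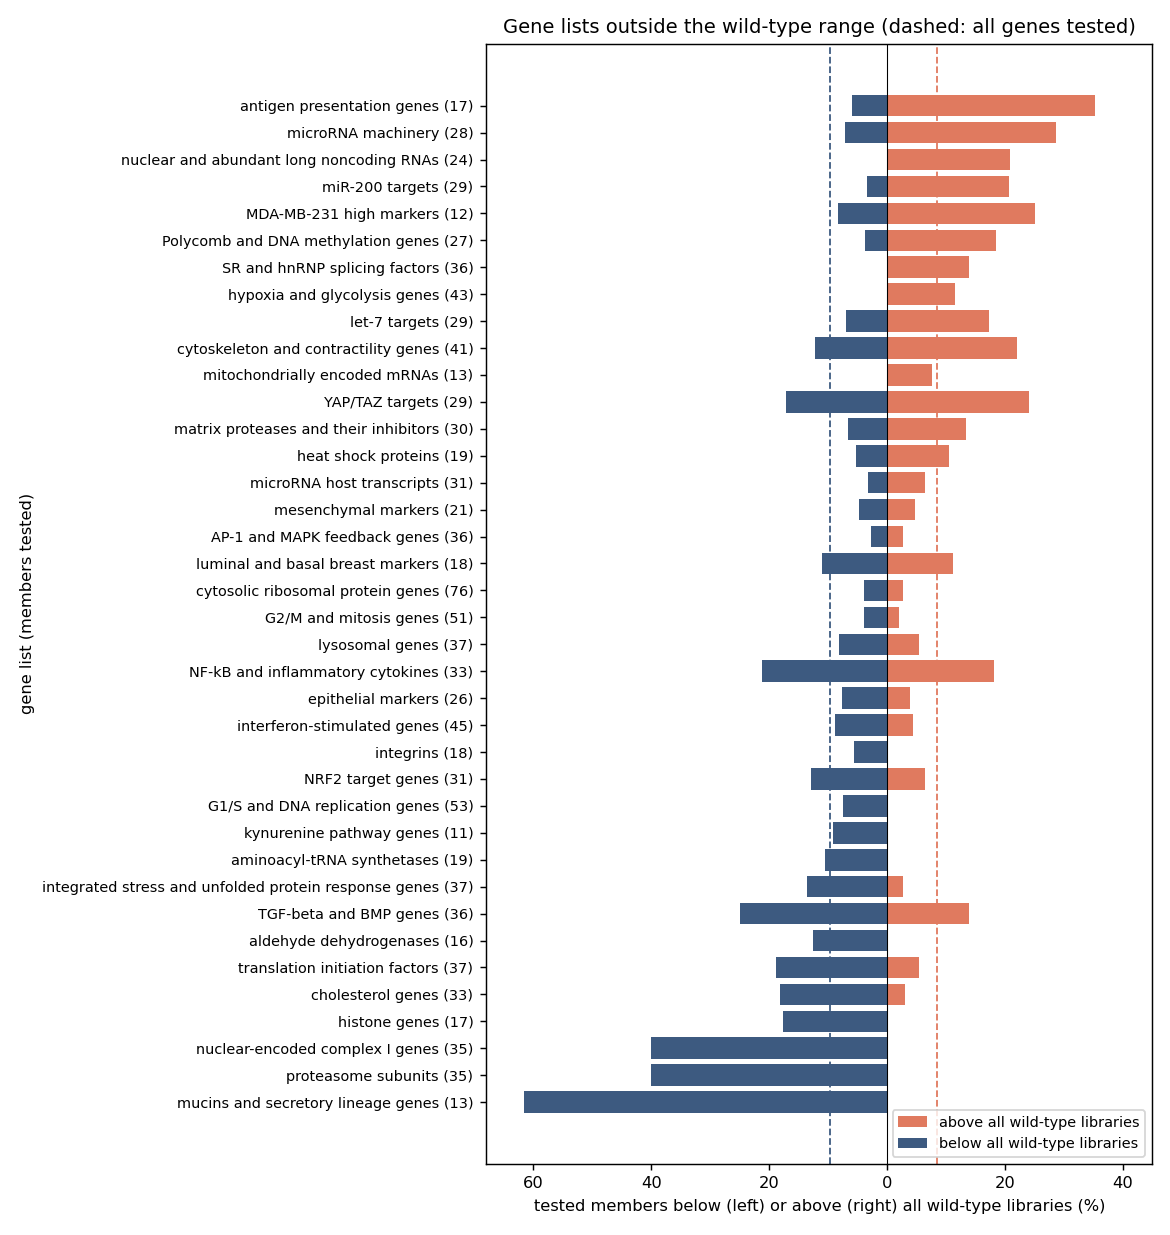
Each row is 1 gene list with its number of tested members; the bar to the right is the percentage above all wild-type libraries, the bar to the left the percentage below, and the dashed lines are all genes tested (8.44% and 9.62%). The secretory list (61.5% below), the proteasome and complex I (40% below each) lie at 1 end and antigen presentation (35.3% above) and the microRNA machinery (28.6% above) at the other. Several secretory genes passed the filter on low counts only through wild type, which in part fixes the share of that list.

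Proteasome subunits stood out among the genes below. Of 35 tested, 14 (40%) lay below, beside 9.62% of all genes, and 0 above, with a median log2 fold change of −0.46. Called lower were 25 and higher 0, beside 33.6% and 27.2% of all genes. With replicate 1 of wild type left out, 15 lay below and 3 above. PSMA3, of the core ring, averaged 31.5 ± 1.12, 98.4 ± 3.25 and 55.1 ± 1.73 CPM in mutations 1, 2 and 3, against 121, 128 and 121 CPM in wild type. PSMB5, the subunit with the chymotrypsin-like site, was at 60.02 to 78.0 CPM (median 66.3), against 102, 118 and 115 CPM.

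The regulatory cap and the assembly factor were similar. PSMC6, an ATPase of the cap, was at 60.3 to 76 CPM (median 63.0), against 99.9, 123 and 127 CPM, and PSMC1 at 33.9 to 59.9 CPM, against 72.3, 78.3 and 82.3 CPM. POMP, which assembles the core, was at 58.2 to 88.5 CPM, against 121, 105 and 107 CPM. These 5 genes are on chromosomes 13 and 14. All 6 tested subunits on chromosomes 12 to 14 lay below and 8 of the 29 elsewhere (27.6%), which matters because of the chromosome pattern described further on.

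Nuclear genes of respiratory complex I, which passes electrons from NADH, gave the same share: 14 of 35 (40%) below and 0 above, with a median of −0.26. Called lower were 20 and higher 5, beside 33.6% and 27.2% of all genes. Without wild-type replicate 1, 15 lay below and 5 above. NDUFB1 was at 17 to 20.9 CPM (median 18.2), against 33.1, 37.1 and 38.6 CPM, and NDUFC2 at 9.54 to 18.6 CPM, against 25.7, 26.6 and 25.8 CPM. NDUFB6, NDUFB10 and NDUFS3 lay below by 1.14-fold to 1.19-fold between the nearest libraries, with log2 fold changes of −0.45, −0.41 and −0.39. Against the direction, NDUFV2 was higher (log2 fold change 1.71 ± 0.21, adjusted p = 4.02e-05), with 10.5 ± 1.12 and 8.06 ± 1.50 CPM in mutations 1 and 3 and 1.57 ± 0.146 CPM in mutation 2, against 2.17, 1.12 and 1.42 CPM. Of the genes elsewhere than chromosomes 12 to 14, 11 of 32 (34.4%) lay below.

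In the mean of the mutations, DNA replication genes were called lower almost throughout, but few cleared wild type. The calls of this list were not counted for each mutation on its own. Of 53 tested G1/S genes, 48 were called lower and 0 higher, beside 33.6% and 27.2% of all genes, with a median of −0.53. Below all wild-type libraries lay 4 (7.55%), beside 9.62% of all genes, and 13 did so without wild-type replicate 1, beside 23.7% of all genes. The 4 were FEN1, GMNN, RRM1 and POLE2. Each of the 4 was nearest to wild type in mutation 2, where FEN1 had a log2 fold change of −0.22 and GMNN one of −0.63. GMNN, the inhibitor of re-licensing, was at 23.5 to 39.9 CPM (median 28.4), against 66.3, 58.2 and 56.0 CPM, and POLE2, a subunit of polymerase epsilon, at 7.18 to 22.2 CPM, against 23.4, 48 and 48.6 CPM. RRM1, of ribonucleotide reductase, lay below by 1.06-fold, at 154 to 205 CPM, against 218, 217 and 217 CPM. For each of the remaining genes of the list, at least 1 mutant library reached the wild-type range.

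Mitosis genes were mixed: of 51 tested, 1 lay above and 2 below, beside 8.44% and 9.62% of all genes (6 and 6 without wild-type replicate 1). Called higher were 8 and lower 20, beside 27.2% and 33.6% of all genes. ANLN, the anillin of the cleavage furrow, was at 485 to 849 CPM, against 417, 267 and 265 CPM. DLGAP5 and CCNB2 lay below, at 95.1 to 163 CPM, against 172, 175 and 176 CPM, and at 78.5 to 94.8 CPM, against 118, 95.4 and 95.4 CPM.

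Of 37 tested initiation factors of translation, 7 (18.9%) lay below and 2 (5.41%) above, beside 9.62% and 8.44% of all genes. This imbalance did not hold without wild-type replicate 1, when 9 lay below and 10 above. Those below included EIF2S1, the alpha subunit of eIF2 (43.7 to 102 CPM, against 119.6, 143 and 155 CPM), EIF2B2, of the exchange factor of eIF2 (24.4 to 33.7 CPM, against 37.5, 65.1 and 62.7 CPM), and EIF5, the GTPase activator of eIF2 (36.3 to 155 CPM, against 171, 278 and 275 CPM). EIF3K was at 82.0 to 112 CPM, against 154, 132 and 132 CPM. EIF2S3, the gamma subunit, lay above, at 260.2 to 359.9 CPM (median 281), against 219.9, 83.9 and 83.0 CPM. EIF2S1, EIF2B2 and EIF5 are on chromosome 14, and 4 of the 7 genes below were on chromosomes 12 to 14. Elsewhere 3 of 32 (9.38%) lay below, beside 8.26% of all genes there.

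Of 19 tested aminoacyl-tRNA synthetases, 2 (10.5%) lay below and 0 above, beside 9.62% and 8.44% of all genes (8 and 2 without wild-type replicate 1). Called lower were 12 and higher 1, beside 33.6% and 27.2% of all genes. WARS1 was at 31.6 to 67.9 CPM, against 90.3, 178 and 179 CPM, and SARS1 at 148 to 204 CPM, against 223, 325 and 321 CPM.

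Of 37 tested genes of the integrated stress and unfolded protein responses, 5 (13.5%) lay below and 1 (2.70%) above, beside 9.62% and 8.44% of all genes. Called higher were 16 and lower 14, beside 27.2% and 33.6% of all genes. Here too the counts were equal without wild-type replicate 1, with 12 below and 12 above. SLC7A5 and SLC3A2, the pair that forms the large neutral amino acid transporter, were at 341 to 629.9 CPM, against 1035, 841 and 819.5 CPM, and at 199 to 291 CPM, against 377, 377 and 383 CPM. CHAC1, which degrades glutathione, was at 0.379 ± 0.326, 6.60 ± 0.671 and 0.931 ± 0.223 CPM in mutations 1, 2 and 3, against 8.40, 23 and 23.6 CPM. SHMT2, of mitochondrial serine metabolism, was at 128 to 166 CPM, against 189, 455 and 445 CPM, and PSPH was the fifth. EDEM1, of endoplasmic reticulum degradation, lay above, at 112 to 167 CPM, against 97.9, 76.5 and 69.8 CPM.

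In the cholesterol list 6 of 33 (18.2%) lay below and 1 (3.03%) above, beside 9.62% and 8.44% of all genes (9 and 6 without wild-type replicate 1). Yet 12 were called higher and 9 lower, beside 27.2% and 33.6% of all genes. IDI1, PMVK and NSDHL, enzymes of the pathway, lay below by 1.16-fold to 1.26-fold between the nearest libraries, and MVK and FDPS also lay below. ABCA1, which exports cholesterol, lay above, at 131 ± 0.363, 39.2 ± 1.81 and 152 ± 1.53 CPM in mutations 1, 2 and 3, against 35.5, 10.6 and 9.90 CPM.

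Antigen presentation genes had one of the highest shares above wild type, 6 of 17 (35.3%), with 1 (5.88%) below and a median of 0.46. Called higher were 11 and lower 4, beside 27.2% and 33.6% of all genes. With replicate 1 of wild type left out, 10 lay above and 3 below. CD74, the invariant chain of MHC class II, was at 1169.7 to 1736 CPM (median 1248), against 606, 669 and 657 CPM, with the 3 wild-type libraries alike. HLA-B was at 159 to 365 CPM, against 118, 29.5 and 29.8 CPM, where wild-type replicate 1 lay nearer to the mutants than to the other two. ERAP2, which trims peptides, was at 12.7 to 18.1 CPM, against 9.12, 9.38 and 9.06 CPM.

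HLA-F, a nonclassical class I gene, had 0 counts in each wild-type library, which allows up to 3 counts in each. The 9 mutant libraries held 139 counts, with 2.13 ± 0.196, 0.0827 ± 0.0262 and 1.03 ± 0.136 CPM in mutations 1, 2 and 3. Their mean was at least 5.5-fold higher than the floor of 3 counts per library, 0.197 CPM, while mutation 2 alone lay under it, and the median of the list is the same 0.46 with HLA-F at that bound. HLA genes resemble each other, so their counts are uncertain. PSME2, of the immunoproteasome activator, was the gene below, at 44.1 to 75.9 CPM, against 102, 107 and 104 CPM. NLRC5 and CANX complete the genes above.

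Of 45 tested interferon-stimulated genes, 4 (8.89%) lay below and 2 (4.44%) above, shares under those of all genes. Called lower were 24 and higher 9, beside 33.6% and 27.2% of all genes, with a median of −0.48. The counts were 14 below and 8 above without wild-type replicate 1. OASL, of the oligoadenylate synthetase family, averaged 0.782 ± 0.195, 22.0 ± 1.61 and 3.34 ± 0.522 CPM in mutations 1, 2 and 3, against 25, 32.3 and 32.7 CPM. IFI35 was at 5.38 to 14.1 CPM, against 20.7, 26.2 and 24.7 CPM, and EPSTI1 at 0.845 to 2.11 CPM, against 3.87, 3.80 and 4.01 CPM. PARP14 and EIF2AK2, the kinase PKR that senses double-stranded RNA, lay above, PARP14 at 42.5 to 63.8 CPM, against 32.8, 38.3 and 37.6 CPM, and EIF2AK2 by 1.02-fold between the nearest libraries.

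NF-kB and inflammatory genes were spread to both sides more than the background: of 33 tested, 6 (18.2%) lay above and 7 (21.2%) below (14 and 9 without wild-type replicate 1). In each direction 12 were called, beside 27.2% of all genes called higher and 33.6% lower. Subunits and feedback lay above. REL was at 4.02 to 14.4 CPM (median 7.11), against 1.44, 1.56 and 1.29 CPM, and TNFAIP3, the inhibitor A20, at 24.2 to 29.95 CPM, against 14.9, 8.60 and 8.09 CPM. TNFAIP3 was not called different among mutations (adjusted p = 0.565, edgeR's quasi-likelihood test). IL1B was at 44.8 to 128 CPM (median 74.9), against 26.6, 14.4 and 14.6 CPM. Other secreted factors lay below: CSF3, the granulocyte colony-stimulating factor, averaged 0.240 ± 0.0287, 8.67 ± 0.731 and 3.68 ± 0.369 CPM in mutations 1, 2 and 3, against 16.1, 30.9 and 28.6 CPM, and CCL26 was at 0 to 0.563 CPM, against 1.51, 1.51 and 1.23 CPM.

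The TGF-beta and BMP list lay on both sides of wild type. Of 36 tested, 9 (25%) lay below and 5 (13.9%) above. Called higher were 12 and lower 13, beside 27.2% and 33.6% of all genes. Above were signal transducers, SMAD3 (454 to 689 CPM, median 561, against 306, 321 and 313 CPM), SMAD5 (64.3 to 86.9 CPM, against 49.2, 46.0 and 45.2 CPM) and SMAD2, with the ubiquitin ligase SMURF1. Below were ligands (TGFB3, BMP4, INHBB), the receptor TGFBR2, the matrix latency protein LTBP1, and BMP and TGF-beta targets. ID1 was at 31.5 ± 1.44, 92.7 ± 0.871 and 90.8 ± 5.31 CPM in mutations 1, 2 and 3, against 166, 331 and 325 CPM, and its relatives ID2 and ID3 lay below too. PMEPA1 was at 50.8 to 98.9 CPM, against 153, 133 and 134 CPM. With wild-type replicate 1 left out, 15 of the list lay above and 11 below. Of the 9 below, 2 were among the 4 genes tested on chromosomes 12 to 14, where many genes lay below. Elsewhere 7 of 32 (21.9%) lay below, beside 8.26% of all genes there. How far chromosome position shapes which members lay above or below was not tested.

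Genes of the actin cytoskeleton lay above wild type more often than below. Of 41 tested cytoskeleton genes, 9 (22.0%) lay above and 5 (12.2%) below, beside 8.44% and 9.62% of all genes (14 and 11 without wild-type replicate 1). In each direction 15 were called, beside 27.2% of all genes called higher and 33.6% lower. MYH9, the heavy chain of nonmuscle myosin, averaged 4711 ± 162, 2469.6 ± 93.9 and 3358 ± 43.0 CPM in mutations 1, 2 and 3, against 1892, 1959 and 1928 CPM, and MYLK, its kinase, 278 ± 3.50, 115 ± 5.13 and 225 ± 1.11 CPM, against 85.4, 78.7 and 72.5 CPM. RHOC lay below, at 102 to 137 CPM, against 174, 171 and 169 CPM. FLNC was at 340.2 to 499.8 CPM, against 283, 83.5 and 83.5 CPM, where wild-type replicate 1 stood near the mutants.

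Of 29 YAP/TAZ targets and regulators, 7 (24.1%) lay above and 5 (17.2%) below, and 11 and 9 without wild-type replicate 1. LATS1, the kinase that restrains YAP, was at 32.8 to 42.3 CPM (median 36.6), against 18.4, 21.3 and 21.2 CPM, and PTPN14, another restraint, at 211 to 257 CPM, against 125, 166 and 167 CPM. IGFBP3 lay below, at 11.5 to 26.5 CPM, against 33.9, 49.1 and 47.8 CPM, and FOXF2 at 1.47 to 6.34 CPM, against 14, 9.33 and 9.70 CPM. Restraints and targets were found on both sides: ASAP1 lay above, at 190.2 to 247 CPM, against 133, 74.4 and 74.5 CPM.

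Epithelial and mesenchymal markers stayed near the background. Of 26 tested epithelial markers 1 lay above and 2 below, and of 21 mesenchymal markers 1 lay above and 1 below (7 and 5 without wild-type replicate 1). TNC, a matrix glycoprotein, averaged 418 ± 12.7, 132 ± 3.49 and 94.2 ± 2.52 CPM in mutations 1, 2 and 3, against 70.7, 62.2 and 62.4 CPM. DSP, desmoplakin of desmosomes, was at 155 to 316 CPM (median 269), against 132, 11.5 and 9.83 CPM, so wild-type replicate 1 lay beside the mutants. KRT7 was at 402 to 576 CPM, against 731, 647 and 620.5 CPM, and CLDN1 at 0.963 to 5.70 CPM, against 10.6, 7.99 and 7.76 CPM. Without wild-type replicate 1, 13 epithelial markers lay above, beside 21.3% of all genes, and 2 below, with a median of 0.63 in place of 0.09.

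The hypoxia and glycolysis list depended on that library. Of 43 tested, 5 (11.6%) lay above and 0 below, with a median of 0.46. Called higher were 24 and lower 2, beside 27.2% and 33.6% of all genes. Without wild-type replicate 1, 28 lay above and 2 below with a median of 1.09. PDK1, which shuts pyruvate out of the mitochondrion, was at 63.1 to 71.2 CPM, against 53.9, 10.4 and 11.9 CPM in wild-type replicates 1, 2 and 3. BNIP3, a mitophagy receptor, was at 398 to 487 CPM, against 393, 131 and 131 CPM. HK2, hexokinase, was at 93.0 to 182 CPM, against 73.3, 31.1 and 29.7 CPM. In each of these genes replicate 1 was closer to the mutants than to the wild-type libraries of its own group.

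Long noncoding RNAs known to be nuclear or abundant lay above in 5 of 24 cases (20.8%) and below in 0, beside 8.44% and 9.62% of all genes. Called higher were 14 and lower 1, beside 27.2% and 33.6% of all genes, with a median of 0.42. Leaving out wild-type replicate 1 gave 9 above and 2 below. SNHG16 averaged 133 ± 5.20, 38.9 ± 0.715 and 114 ± 0.751 CPM in mutations 1, 2 and 3, against 29.6, 30.2 and 28.6 CPM. KCNQ1OT1, the antisense RNA of an imprinted cluster, averaged 67.7 ± 2.78, 5.81 ± 0.537 and 21.1 ± 2.13 CPM, against 1.58, 4.25 and 4.98 CPM, and counts without strand cannot separate it from KCNQ1. SNHG12, PVT1 and NEAT1 were the others above. JPX was the one called lower (log2 fold change −0.80 ± 0.10, adjusted p = 6.21e-05).

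Among chromatin genes, 5 of 27 (18.5%) Polycomb and DNA methylation genes lay above and 1 (3.70%) below, beside 8.44% and 9.62% of all genes. Called higher were 11 and lower 12, beside 27.2% and 33.6% of all genes. Once wild-type replicate 1 was left out, 8 lay above and 8 below. The erasers of H3K27 methylation KDM6A (32.2 to 46.9 CPM, against 23, 14.2 and 15.1 CPM) and KDM6B (20.6 to 64.6 CPM, against 13, 16.0 and 14 CPM) both lay above, as did the DNA demethylases TET2 and TET3 and the methyltransferase EZH1. EED, the core subunit that reads the mark, lay below, at 13.4 to 39.1 CPM, against 41.0, 48.2 and 51.1 CPM. Of 36 splicing factors, 5 (13.9%) lay above and 0 below (6 and 3 without wild-type replicate 1), HNRNPH1 with the widest gap (717 to 976 CPM, median 748, against 453, 428 and 429.8 CPM).

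Genes of small families gave single cases. Of 18 integrins, 0 lay above and ITGB2 alone below, and 3 and 4 did so without wild-type replicate 1. ITGB2 was at 0.131 to 2.53 CPM, against 5.25, 82.3 and 82.0 CPM. ALDH3A1, an aldehyde dehydrogenase, was at 0 to 0.250 CPM, against 0.722, 83.2 and 81.5 CPM, and KYNU, of the kynurenine pathway, at 0 to 6.90 CPM, against 23.1, 56.6 and 58.4 CPM. PECAM1, an endothelial marker, was at 0.352 to 0.915 CPM, against 2.76, 17.1 and 15.3 CPM, while its whole list summed to 25.1 to 124 CPM, against 43.9 to 46.3 CPM, with DCN at 0 everywhere. In ITGB2 and ALDH3A1 wild-type replicate 1 was far below the other two and set the gap.

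Genes below were concentrated on some chromosomes, a pattern chosen after the values were seen. On chromosome 14, 124 of 452 tested genes (27.4%) lay below and 2.21% above, on chromosome 13, 50 of 243 (20.6%) below and 1.65% above, and on chromosome 12, 152 of 774 (19.6%) below and 4.26% above. These 3 chromosomes held 326 of the 1452 genes below (22.5%) but 9.73% of the genes tested, and elsewhere 1126 of 13625 genes (8.26%) lay below. Chromosome 18 was the reverse, with 41 of 218 genes (18.8%) above and 1.83% below. Chromosomes 6 (15.3%), 21 (14.3%), 2 (14%), 5 (13.8%) and 15 (13.7%) followed among those with many genes above, and chromosomes 20 (14%) and 8 (12.6%) among those with many below.

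**Figure D3:**
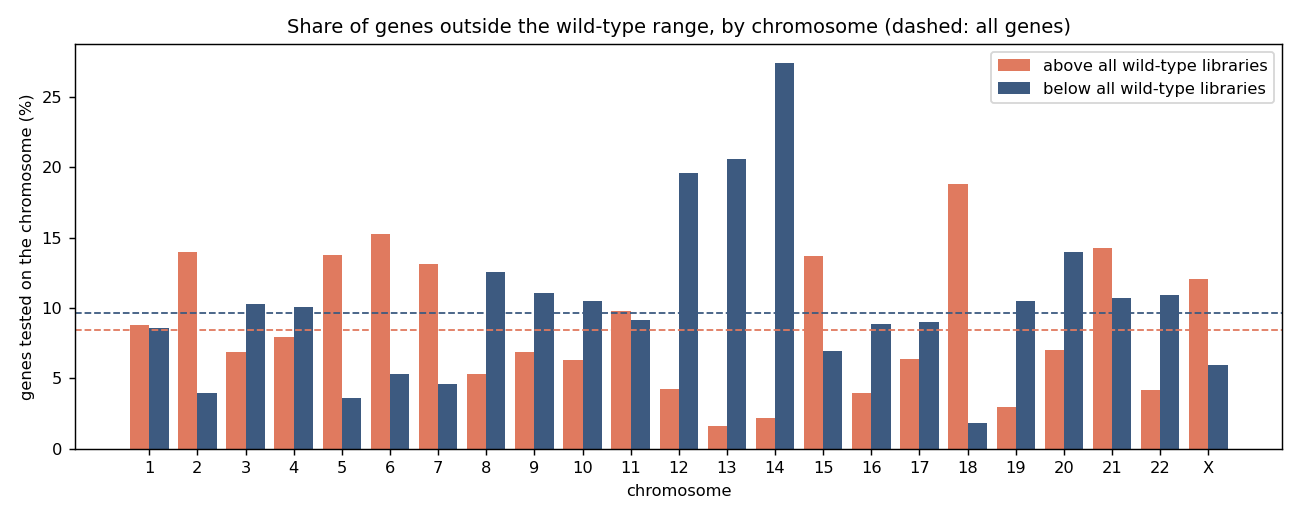
For each chromosome the left bar is the percentage of its tested genes above all wild-type libraries and the right bar the percentage below, with the dashed lines at the share of all genes (8.44% and 9.62%). Chromosome 14 has the tallest bar below, 27.4%, and chromosome 18 the tallest above, 18.8%.

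The shift belonged mainly to wild-type replicates 2 and 3. The median gene of chromosome 14 lay −0.16 to −0.09 from its mean over the 12 libraries on the log2 scale in the mutant libraries, against 0.08, 0.53 and 0.55 in the wild-type libraries 1, 2 and 3. For chromosome 13 the mutants lay at −0.22 to −0.04, against −0.08, 0.56 and 0.52. For chromosome 18 they lay at 0.02 to 0.19, against 0.09, −0.53 and −0.50. Wild-type replicate 1 was near the mutants, and the other two wild-type libraries were apart from all the rest on these chromosomes. On these chromosomes a level above or below wild type cannot be told apart from a difference between stocks of the cells.

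Without wild-type replicate 1 the shares below were 57.9% on chromosome 14, 63.8% on chromosome 13 and 48.7% on chromosome 12, and 47.2% of the genes on chromosome 18 lay above. Within chromosomes, the 60 to 80 Mb window of chromosome 14 had 34.4% of its genes below and the 40 to 60 Mb window of chromosome 18 had 32.0% above. The number of DNA copies in these cells was not analysed here, and its part in these shares was not tested.

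**Figure D4:**
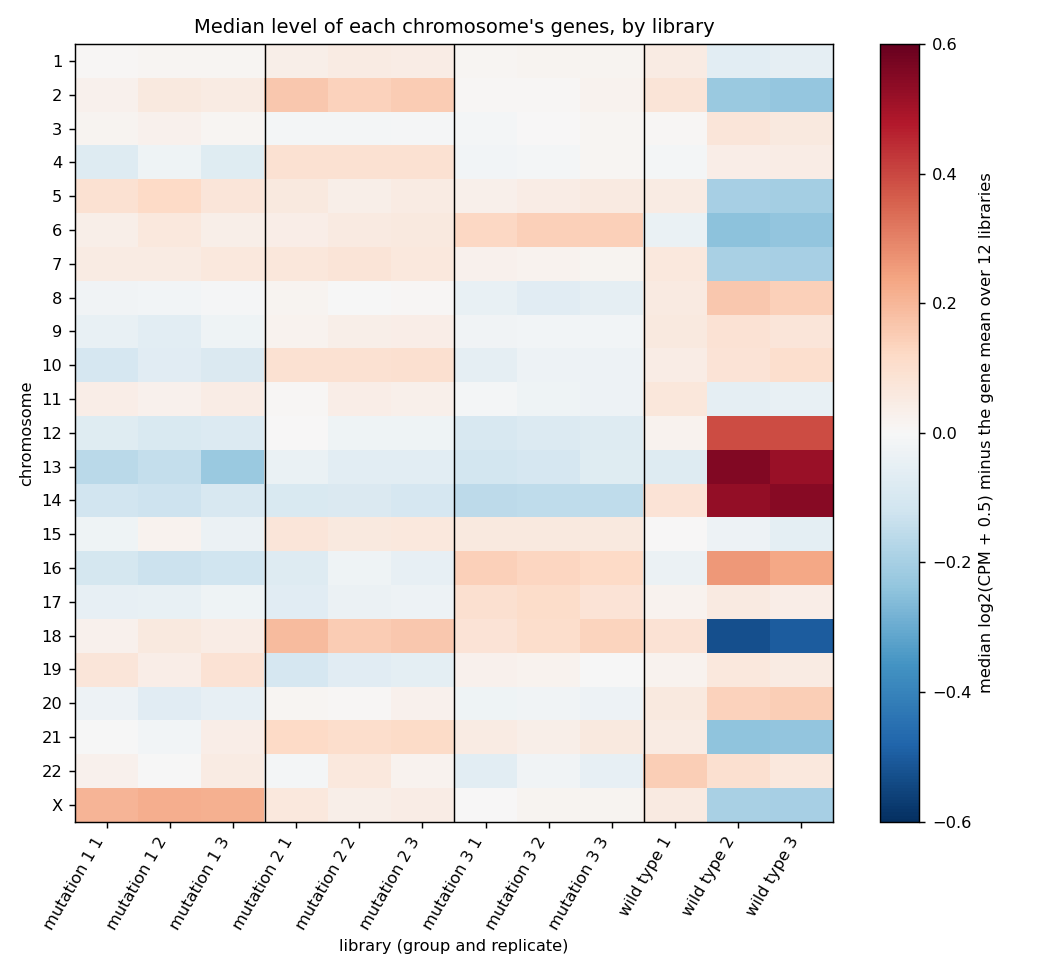
Each column is 1 library, mutations 1, 2 and 3 left of wild type, and each row 1 chromosome; the colour is the median, over genes that averaged 5 CPM or more, of log2(CPM + 0.5) minus the gene's mean over 12 libraries. Wild-type replicates 2 and 3 are red on chromosomes 12, 13 and 14 and blue on chromosome 18 (0.53 and −0.53 in replicate 2 on chromosomes 14 and 18), and wild-type replicate 1 is close to the mutant columns there.

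The genes above were long and the genes below short, which was also noticed after the values were seen. The exons of a gene, joined, covered a median of 7056.5 bases for genes above and 3645 for genes below, beside 4663 for all tested genes with a length in GENCODE v29. In the decile of protein-coding genes with the shortest exons (207 to 2220 bases), 2.23% lay above and 19.2% below, and in the decile with the longest (10748 to 118976 bases), 21.1% lay above and 4.46% below.

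This too moved with 1 library. The median deviation of the longest decile minus that of the shortest was 0.01 to 0.13 on the log2 scale in the mutant libraries, against −0.61, −0.13 and −0.14 in wild-type replicates 1, 2 and 3. With wild-type replicate 1 left out, 18.5% of the shortest and 31.7% of the longest decile lay above, and 27.1% and 22.2% below. Exon lengths of the lists differ as well: the median was 3356 bases for the proteasome and 2475 for complex I, and 7866.5 for the microRNA machinery. How much of the lists' counts goes with length was not tested.

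**Figure D5:**
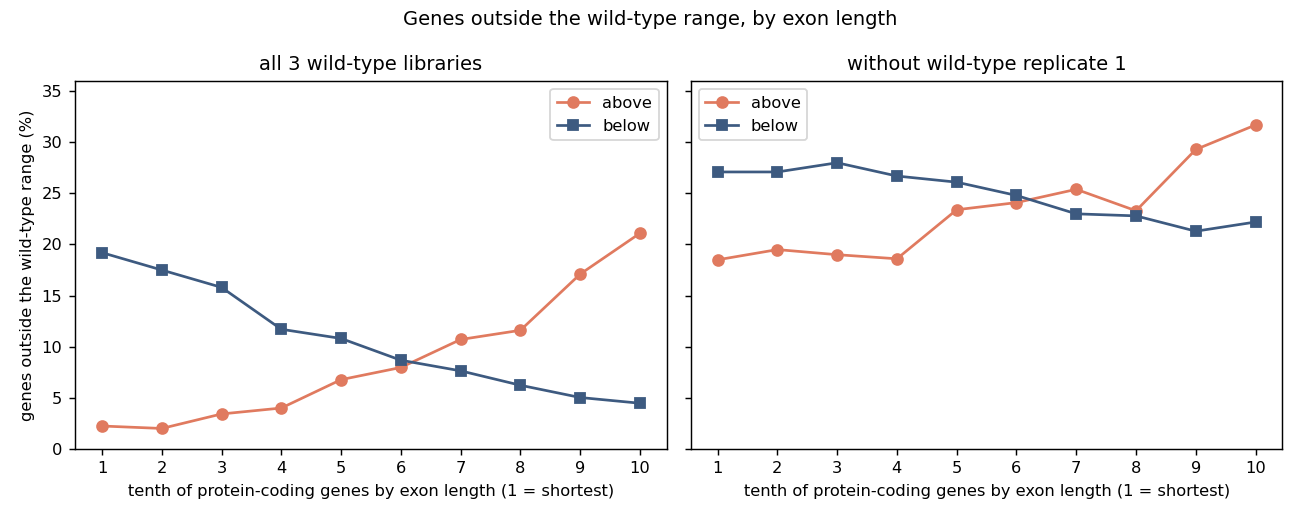
Protein-coding genes are split into 10 groups of rising exon length on the x axis, and the y axis is the percentage of each group above (circles) or below (squares) wild type, with all 3 wild-type libraries at the left and without wild-type replicate 1 at the right. At the left the share above climbs to 21.1% and the share below drops to 4.46% in the longest group; at the right the share below stays between 21.3% and 28.0%.

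Genes above also had more counts, with a median of the mean level of 42.9 CPM, beside 22.1 CPM for genes below and 19.5 CPM for all genes. CPM is not corrected for gene length, and the mean includes the mutant libraries that chose the genes, so these medians do not rank expression. Of genes above 85.6% were protein-coding, beside 92.6% of genes below and 83.2% of all genes. When libraries were scaled by their totals alone, the median log2 fold change of all genes was −0.14 in place of −0.03, and 962 genes lay above and 1804 below.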

How the data were processed

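Poly(A)-selected RNA of 12 MDA-MB-231 libraries was compared, 9 with mutant Dicer (3 mutations, 3 libraries each) and 3 with wild-type Dicer. Raw counts (read pairs) of 64252 Ensembl gene IDs were deposited by the authors. These were made by featureCounts 2.0.6, per the file headers, from exons of the Ensembl track of hg38, unstranded, at a mapping quality of at least 10. Other tools, per the submitters' processing notes, were cutadapt 1.9.1 and FastQC 0.11.8, and also SAMtools, STAR and DESeq2, the versions of which are not given in the sources used here. Reads of antisense or overlapping genes and of near-identical copies cannot be told apart in such counts. Symbols were found for 56105 IDs (87.3%). Coordinates and exon lengths came from GENCODE v29.

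From the counts, CPM were computed with TMM factors of edgeR 4.0.16 (R 4.3.3). Of these IDs 15094 passed filterByExpr, set to a minimum count of 10 and a minimum total of 15. edgeR's quasi-likelihood test was fitted to all 4 groups without covariates (8 residual degrees of freedom, Benjamini-Hochberg adjusted p under 0.05), with the mean of the 3 mutations minus wild type as a contrast and an F test among the 3 mutations. The scripts were tested on simulated data. Because the labels do not tie libraries to separate cultures, the spread behind each p-value is that between these samples and may be technical only. No pair of libraries of 1 group agreed within sampling noise, so all 12 were kept. Chi-square per degree of freedom was 1.29 to 3.39 for pairs of 1 mutation and 1.25 for wild-type replicates 2 and 3. It was 144 and 136 for wild-type replicate 1 with replicates 2 and 3, so the largest spread came from that 1 library.

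Genes were named by rule: DICER1, the 15 genes per direction with the widest gap (0.5 CPM added to both sides, at least 5 CPM in every library of the higher side, no clone names), up to 5 of widest gap in each of 42 gene lists with up to 2 called against the list's direction, machinery and host genes, and the 2 genes nearest each edge. A few of these genes are not reported here. Members that a list holds above or below are also named without values. The genes, lists, rules and tests were chosen with earlier results of these data known. Lists are given as counts and medians beside those of all genes, with no test of the list. Alternatives were RLE factors, library totals alone, no filter, DESeq2 1.42.0, all mutants as 1 group, each library or mutation left out and a 2-fold gap.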

Additional observations from a re-analysis of the deposited data

Results flagged for a closer look

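Most genes outside the wild-type range differed among the 3 mutations by edgeR's quasi-likelihood F test, 1893 of 2726 (69.4%) at an adjusted p under 0.05. This share is under the 72.5% of all genes tested and does not set these genes apart. The same test marked 20 of the 30 genes with the widest gaps. Among the genes above wild type its adjusted p was 5.07e-05 for SH3D21, 2.31e-05 for RAPH1, 1.79e-05 for EPG5, 1.92e-07 for PDE4DIPP2, 6.93e-07 for ARFGEF3, 2.68e-05 for SERINC5, 9.94e-06 for ARHGAP32, 0.00658 for HDAC9, 0.0224 for MAP3K21, 0.000272 for NOTCH1 and 0.00945 for HSPG2. SH3D21 averaged 72.5 ± 0.964, 30.9 ± 0.605 and 57.0 ± 3.23 CPM in mutations 1, 2 and 3, and RAPH1 33.8 ± 0.440, 21.2 ± 0.713 and 16.4 ± 2.03 CPM (SD, n = 3 each), so that mutation 2 was the lowest in SH3D21 and mutation 3 in RAPH1. EPG5 averaged 113 ± 2.14, 100.4 ± 3.12 and 142 ± 4.71 CPM.

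Among the genes below wild type the adjusted p was 0.0373 for SPDEF, 0.0126 for INHBB, 7.00e-05 for SOX4, 4.20e-05 for MISP, 0.00358 for ATOH8, 0.000253 for KRT81, 0.000486 for SLAMF7, 0.000265 for ZG16B and 0.000137 for TMEM156. Several of these differences lie at levels near 0: SPDEF had 32 counts and INHBB 20 counts in all 9 mutant libraries together. MISP averaged 2.43 ± 0.462, 0.296 ± 0.0246 and 0.472 ± 0.0838 CPM in mutations 1, 2 and 3, so that mutation 1 was the one nearest to wild type.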

How the results depend on the processing

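With wild-type replicate 1 left out, the genes above and below wild type were 3361 and 3747, and those of them that differed among mutations 6189. That last count stands without the share of all genes in the same fit. Over all single libraries left out these counts ran from 1215 to 3361, from 1566 to 3747 and from 1785 to 6189, and the genes called higher or lower from 3460 to 5861 and from 4497 to 6467. Without mutation 2, 3399 lay above and 3616 below, since mutation 2 lies nearest to wild type, and without mutation 1, 2726 genes were called higher. A gap of at least 2-fold left 44 above and 68 below. With the 9 mutant libraries as 1 group, 1355 genes were called higher and 1473 lower, the differences among mutations then counting as spread. Library totals alone moved the share above among the genes outside wild type by over 10 points, to 962 above and 1804 below.

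DICER1 turned to −0.016 with library totals alone and −0.11 without wild-type replicate 1 (range −0.11 to 0.23 over single libraries left out). DROSHA turned to 0.017 with mutants as 1 group, 0.11 without mutation 1 and 0.064 without mutation 3, and XPO5 to 0.10 without mutation 1, none past the threshold. Of 151 named genes besides DICER1, 151 kept direction and call with RLE factors, as did all 150 for which DESeq2 gave a result, and 124 with the mutants as 1 group, where 26 lost their call and DROSHA reversed. Leaving out single libraries kept 1805 results and took the call from 7, which were PDK1 without wild-type replicate 3 and else DNAJC21 at the edge of the rule. DSP, PDK1 and BNIP3 lost their calls without the filter and without mutation 1, PRKRA with library totals alone and LCN2 without mutation 3. The cause was not tested. No paired analysis was possible because the mutant libraries carry no replicate numbers in the labels. Depth limits genes under about 1 CPM in mutants, such as AGR2 with 2 counts.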
